A study of Mus musculus with 30 samples.

Results

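The major histocompatibility complex (MHC) class I pathway was followed through 10 genes in platelets and peripheral blood mononuclear cells (PBMC) of mice with and without B16F10 melanoma cells. The genes were B2m, H2-K1, H2-D1, H2-T23, Tap1, Tap2, Tapbp, Psmb8, Psmb9 and Nlrc5, taken by symbol from the 54532 Ensembl genes counted in each tissue. All 10 were detected in every library, and all 10 passed the filter on low counts in every comparison. In platelets of mice that had received few tumor cells, the transporter transcripts Tap1 and Tap2 were higher than in both other groups, and Tapbp higher than in mice with large tumors, at an unadjusted P under 0.05 that did not survive adjustment over all genes, by edgeR's quasi-likelihood test. The class I chains themselves (B2m, H2-K1, H2-D1, H2-T23) did not pass that test in any comparison of the groups, although H2-K1 and B2m passed with DESeq2 on every gene. Tap1, Tap2 and Tapbp varied with the transcripts of nucleated leukocytes in the same platelet libraries (r of 0.98, 0.92 and 0.77), and Nlrc5, also higher than in mice without tumor cells, less closely (r of 0.42).

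Every mouse was of the C57BL/6 strain. The S group received a subcutaneous injection of 2000 B16F10 cells per mouse, the suboptimal number, and autopsy 14 days later showed no visible tumor. The O group received the optimal number of 100000 cells per mouse and is labelled as large tumor. The C group received only the carrier, Hank's balanced salt solution (HBSS). B16F10 is a transplantable mouse melanoma line of C57BL/6 origin, so host and tumor share the same class I alleles. Each group had 5 libraries in each tissue, and each library held RNA pooled from several mice. By the labels, pools held 10 mice in platelet S, 5 to 10 in platelet C and 3 to 5 in platelet O, against 4 to 5, 5 and 3 to 5 in the PBMC groups, and the study's methods give slightly different sizes for some S pools. Platelets came from platelet-rich plasma by centrifugation and PBMC from the lower layer of the same blood, and the cell type label of the platelet libraries reads PBMC, so their title and source were used. The mice were young females. A suboptimal number of cells need not form a tumor in every mouse, so S pools may hold mice that would never have developed one. The separate pools are the replicates, so p-values measure the spread between pools.

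MHC class I molecules display short peptides from inside the cell to cytotoxic T cells. Proteasomes cut proteins into peptides, the transporter made of Tap1 and Tap2 carries them into the endoplasmic reticulum, and tapasin (Tapbp) holds the empty class I molecule at the transporter until a peptide fits. The finished molecule joins a heavy chain (H2-K1, H2-D1 or the non-classical H2-T23) to the light chain beta-2-microglobulin (B2m), and Nlrc5 is the transactivator that sits on the promoters of many of these genes. Platelets have no nucleus and keep the transcripts that megakaryocytes packed into them. They carry much class I on their surface, and megakaryocytes can process antigen.

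Of the 10 genes, 8 lie on chromosome 17 in the mouse MHC, whereas B2m lies on chromosome 2 and Nlrc5 on chromosome 8. In the GENCODE annotation of the GRCm38 build, Psmb9 (chr17:34181987-34187764, minus strand), Tap1 (chr17:34187553-34197225, plus strand), Psmb8 (chr17:34197721-34201454, plus strand) and Tap2 (chr17:34203527-34216321, plus strand) stand side by side. Tapbp (chr17:33915899-33929292, plus strand) and H2-K1 (chr17:33996017-34000347, minus strand) lie on one side of that cluster, and H2-D1 (chr17:35262730-35267499, plus strand) and H2-T23 (chr17:36029773-36032855, minus strand) on the other. B2m occupies chr2:122147686-122153083 and Nlrc5 chr8:94434356-94527272, both on the plus strand. All are protein-coding. Psmb9 and Tap1 are transcribed away from each other from RefSeq starts 225 bases apart, and their promoter windows share 275 of 300 bases.

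The promoters are shown because Nlrc5 acts through letters in them and because the members moved apart from each other in platelets. The windows are RefSeq sequences of GRCm38.p6, each of 300 bases from 250 before to 50 after the start, and are read 5′ to 3′ in the direction of transcription. Capitals mark every match, on either strand, to TTCNNNGAA (gamma-activated site), GAAANNGAA (core of the interferon-stimulated response element), TGACG (part of the X2 box) or ATTGG (Y box). The windows of H2-K1 and H2-D1 were added after their matches had been seen. They lie at chr2:122147437-122147736 (B2m, plus strand), chr17:34000298-34000597 (H2-K1, minus strand), chr17:35262844-35263143 (H2-D1, plus strand) and chr17:34187306-34187605 (Tap1, plus strand).
B2m: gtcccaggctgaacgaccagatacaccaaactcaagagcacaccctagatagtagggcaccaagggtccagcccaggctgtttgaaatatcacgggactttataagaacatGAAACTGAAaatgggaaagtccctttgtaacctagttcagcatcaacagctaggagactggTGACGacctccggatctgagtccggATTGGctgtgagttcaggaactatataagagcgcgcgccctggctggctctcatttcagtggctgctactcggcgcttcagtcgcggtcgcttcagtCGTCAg
H2-K1: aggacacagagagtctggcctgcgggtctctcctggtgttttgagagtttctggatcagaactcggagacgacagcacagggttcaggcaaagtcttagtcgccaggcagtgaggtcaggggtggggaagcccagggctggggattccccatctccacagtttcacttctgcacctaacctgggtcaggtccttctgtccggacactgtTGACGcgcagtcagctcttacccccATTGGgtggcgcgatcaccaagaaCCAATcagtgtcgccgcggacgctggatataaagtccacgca
H2-D1: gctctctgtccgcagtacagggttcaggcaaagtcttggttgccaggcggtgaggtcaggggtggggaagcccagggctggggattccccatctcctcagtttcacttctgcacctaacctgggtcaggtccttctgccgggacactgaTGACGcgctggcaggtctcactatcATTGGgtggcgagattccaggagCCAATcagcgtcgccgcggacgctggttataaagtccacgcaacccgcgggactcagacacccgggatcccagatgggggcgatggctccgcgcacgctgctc
Tap1: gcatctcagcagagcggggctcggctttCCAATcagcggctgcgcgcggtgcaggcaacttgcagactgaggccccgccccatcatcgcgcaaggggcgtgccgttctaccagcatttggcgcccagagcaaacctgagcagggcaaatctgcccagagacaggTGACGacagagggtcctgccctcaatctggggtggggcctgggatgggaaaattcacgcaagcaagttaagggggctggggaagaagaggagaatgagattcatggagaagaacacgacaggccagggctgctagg
B2m, H2-K1 and H2-D1 each held TGACG followed by ATTGG with 25 bases from first letter to first letter, and in B2m they began 78 and 53 bases before the start. This spacing on one strand was present in 31 of 32817 promoter windows (0.0945%). The spacing was looked up after it had been seen in these members, so its rarity is a description. Tap1 and Psmb9 held both letters without that spacing. TGACG alone was in 20.8% of all windows, ATTGG in 37.4%, GAAANNGAA in 8.55% and TTCNNNGAA in 8.29%. GAAANNGAA was found in B2m and H2-T23 and TTCNNNGAA in Psmb8. A match is a string of letters and not a shown binding site. Promoter windows were at hand for 8 of the 10 genes.

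The platelet libraries held 12259036 to 25360080 gene counts and the PBMC libraries 13390983 to 15973449. Hemoglobin transcripts took 4.02% to 39.0% of the platelet counts and 3.23% to 24.5% of the PBMC counts. The defining platelet markers were far above their PBMC level, with 13 of 13 tested markers higher in platelets and a median log2 difference of 4.29. All 14 markers of nucleated leukocytes had counts in every platelet library, with a summed level of 512 to 2395 CPM (counts scaled to a common library size, TMM-normalized over all 30 libraries) against 2711 to 3533 CPM in the PBMC libraries. Platelet O replicates 1 and 5 had the lowest and highest normalization factors of the platelet libraries (0.553 and 1.65), PBMC O replicate 1 had the lowest of the PBMC libraries (0.551), and PBMC S replicate 3 had a count for 32900 genes where the other PBMC libraries had 20540 to 22991. Leaving out together those of the 4 that a comparison holds changed no count of members called in the 5 comparisons of groups within a tissue that hold any, although without platelet O replicate 5 alone Tap2 was no longer called for S against O. The difference between the tissues, given next, called 9 members without platelet O replicate 1 (4 higher) and 10 without platelet O replicate 5 (5 higher). With libraries scaled per tissue, fewer cells of a type and less RNA per cell cannot be told apart.

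B2m was the leading class I transcript of both tissues, and its lead was far larger in platelets. On a scale of CPM per kilobase of exon, with all 30 libraries normalized together, B2m had a median of 14705 in the 15 platelet libraries (range 5413 to 29311) and of 1198 in the 15 PBMC libraries (906 to 1546). The heavy chain H2-D1 came next in platelets with a median of 1029, followed by H2-K1 with 223 and H2-T23 with 125. The ranges of B2m, H2-D1 and H2-K1 did not touch in platelets, while H2-K1 and H2-T23 overlapped. In PBMC, H2-D1 and H2-K1 stood almost level at medians of 699 and 646, with overlapping ranges, and H2-T23 lay apart at 114. Below the chains, the platelet order was Psmb8 (45.7), Psmb9 (24), Tapbp (23), Tap1 (10.2), Nlrc5 (8.03) and Tap2 (5.92), and each overlapped its neighbour. The PBMC order was Tapbp (51.5), Tap1 (45.5), Nlrc5 (27.8), Psmb8 (27.4), Tap2 (22.4) and Psmb9 (21.3), again with overlaps. Both immunoproteasome subunits thus ranked above Tap1 and Tap2 in platelets, whereas in PBMC both ranked below Tap1.

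**Figure D1:**
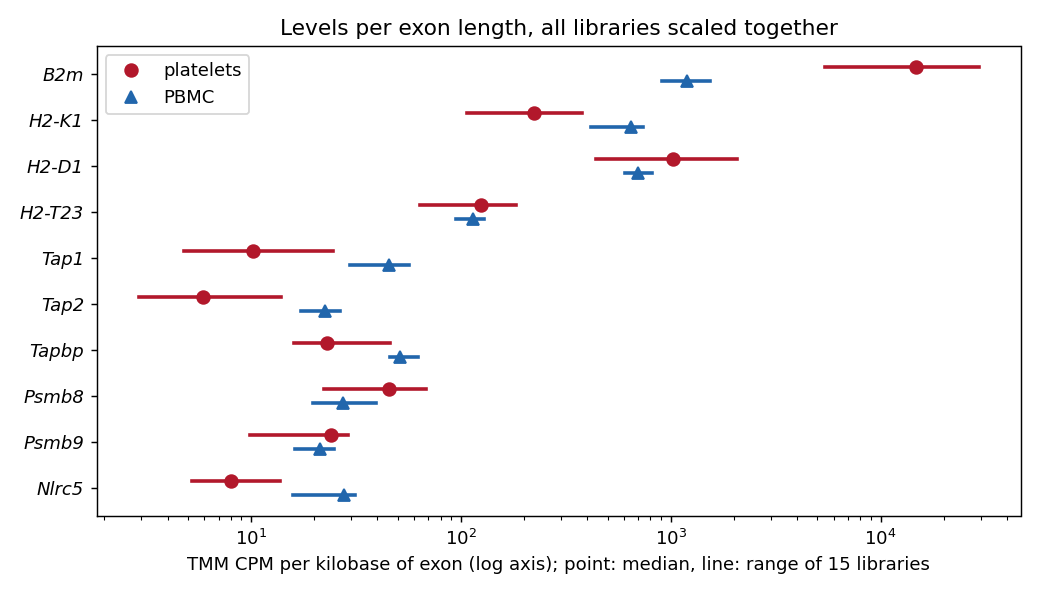
Levels of the 10 genes as TMM-normalized CPM per kilobase of exon on a log axis, with the median (point) and range (line) of the 15 libraries of each tissue, all libraries scaled together. B2m stands at a median of 14705 in platelets and 1198 in PBMC, whereas H2-K1, Tap1, Tap2 and Nlrc5 lie lower in platelets without overlap between the tissues. Of all genes tested, 45.2% were lower in platelets by edgeR at an adjusted P under 0.05. The share of genes without overlap was not computed.

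Platelets and PBMC differed in 8 of the 10 genes by edgeR's quasi-likelihood test (Benjamini-Hochberg adjusted P under 0.05), with 3 higher and 5 lower in platelets. Of all genes tested, 36% were higher and 45.2% lower by the same rule, so a count of 8 is close to the background. The light chain B2m was 12.3-fold higher in platelets (log2 difference 3.62 ± 0.22 SE, adjusted p = 3.31e-15), and its log2 difference was 2.33 with library totals alone in place of TMM, where 10 members were called and 1 of them, B2m, was higher, beside 13.6% of all genes higher and 77.7% lower. H2-D1 was higher by 0.64 ± 0.15 (edgeR adjusted p = 0.000362), a direction that turned to -0.66 with library totals. H2-K1 was lower, with a log2 difference of -1.46 ± 0.15 (edgeR adjusted p = 2.06e-10). H2-T23 had a difference of 0.16 ± 0.11 (edgeR adjusted p = 0.197), which turned to -1.14 with library totals. The heavy chains therefore parted: the ratio of H2-D1 to H2-K1 counts ran from 1.98 to 9.79 in platelets (median 3.93) and from 0.888 to 1.28 in PBMC (median 0.956).

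Among the genes of transport and loading, the log2 difference of Tap1 was -2.13 ± 0.15, that of Tap2 -1.85 ± 0.14 and that of Tapbp -1.01 ± 0.11, all lower in platelets (adjusted p from 8.38e-14 to 1.28e-09). Nlrc5 was also lower, at -1.66 ± 0.11 (adjusted p = 8.19e-15). The immunoproteasome subunit Psmb8 was higher at 0.70 ± 0.11 (edgeR adjusted p = 7.75e-07), but -0.50 with library totals. Its partner Psmb9 had a difference of 0.17 ± 0.10 (edgeR adjusted p = 0.111), and -1.02 with library totals. The median of all genes was itself -0.15 with TMM and -1.37 with library totals, so relative to that median H2-D1, H2-T23, Psmb8 and Psmb9 stood higher in platelets under both scalings, and Tap1, Tap2, Tapbp and Nlrc5 lower.

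The S group was set against the C group to ask whether platelets differ when no tumor is visible. Tap1, Tap2 and Nlrc5 passed an unadjusted P under 0.05 in platelets, and all 3 were higher in S. Of all genes tested, 4.29% were higher and 2.13% lower by this rule, the one the study used. The 852 genes so called became 1542 without C replicate 1 and 556 without S replicate 1. None of the 10 passed the adjusted threshold, which 0.00754% of genes did. Tap1, one chain of the peptide transporter, measured 49.9, 21.9, 31.5, 35.8 and 31.6 CPM in the 5 C libraries and 56.9, 38.5, 67.5, 35.8 and 94.2 CPM in the 5 S libraries. S replicates 1, 3 and 5 lay above every C library, and the groups overlapped. The log2 fold change was 0.77 ± 0.27 (SE; edgeR with Benjamini-Hochberg adjusted p = 0.746).

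Tap2, the other chain of the transporter, measured 19.3, 10.9, 15.3, 14.6 and 9.16 CPM in C and 24.1, 12.9, 22.4, 14.2 and 36.9 CPM in S. Again the S libraries 1, 3 and 5 were above all C libraries. Its log2 fold change was 0.66 ± 0.27 (edgeR adjusted p = 0.752). The transactivator Nlrc5 measured 39.3, 40.7, 30.5, 43.2 and 45.0 CPM in C and 51.2, 45.4, 43.5, 48.4 and 81.7 CPM in S. Of the S libraries 4 exceeded every C library, and S replicate 5 was far above the rest. The log2 fold change was 0.43 ± 0.19 (edgeR adjusted p = 0.769). Without S replicate 5 it was 0.23, and Nlrc5 and Tap2 no longer passed, so 1 member was called, as also without S replicate 1 or C replicate 2. Without S replicate 4, 5 members were called. Over the 10 fits that each left out 1 library, 556 to 1542 of all genes were called.

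**Figure D2:**
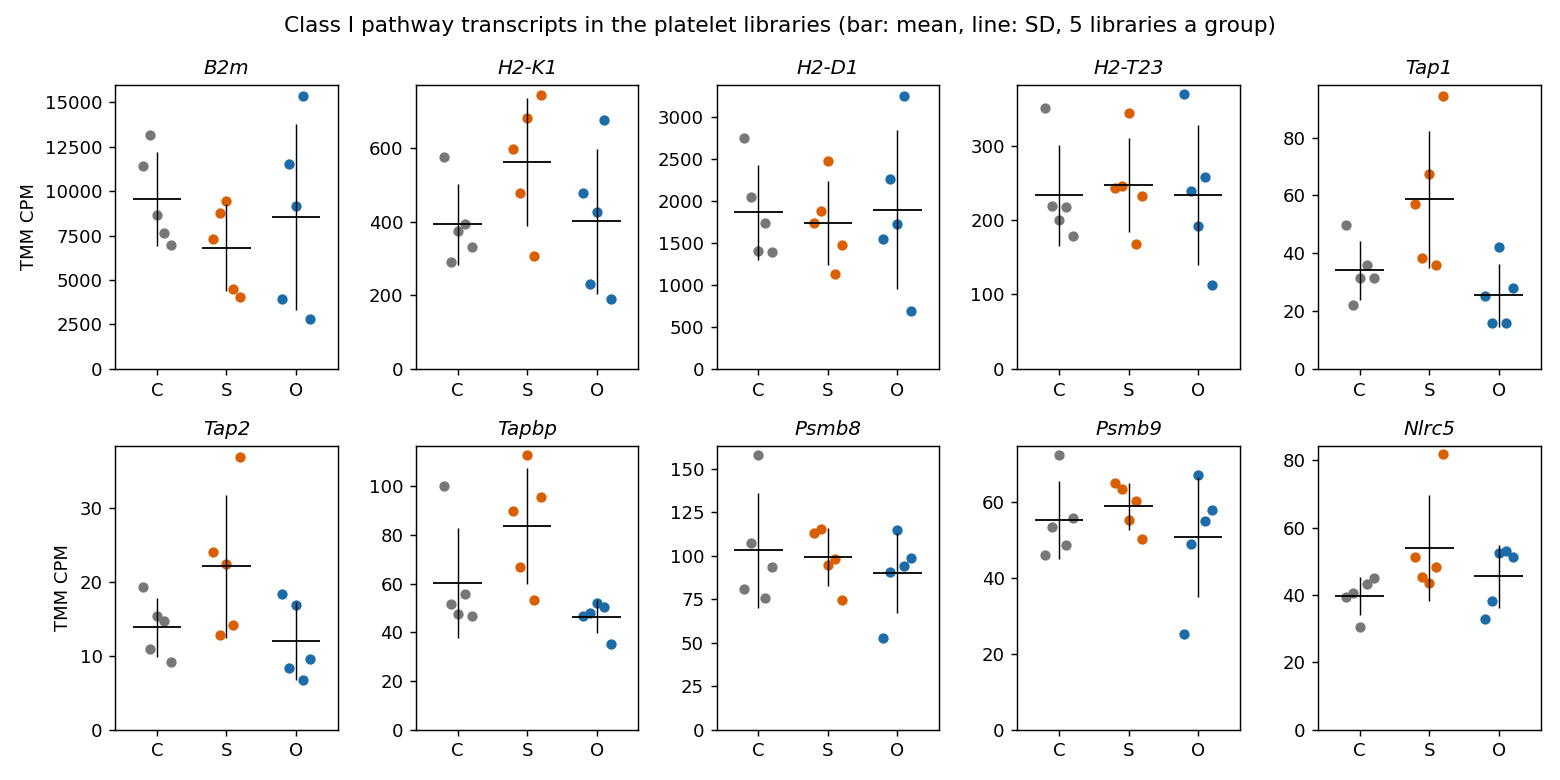
TMM-normalized CPM of each gene in the 15 platelet libraries by group, with 5 libraries (points), the mean (bar) and the SD (line) in each group, on axes that start at 0. S replicate 5 is highest for Tap1 (94.2 CPM), Tap2 (36.9) and Nlrc5 (81.7), and the S and O libraries of Tapbp do not overlap.

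The other members did not pass edgeR's test between S and C. H2-K1 measured 576, 290, 375, 393 and 331 CPM in C and 598, 478, 682, 307 and 745 CPM in S, a log2 fold change of 0.50 ± 0.25 (edgeR adjusted p = 0.769). It passed the unadjusted threshold without C replicate 1 and without S replicate 4, at 0.65 each, and with voom, at 0.50. B2m measured 11431, 13164, 8667, 7638 and 6961 CPM in C and 7284, 8796, 9473, 4485 and 4066 CPM in S, a log2 fold change of -0.50 ± 0.33 (edgeR adjusted p = 0.787). With DESeq2, the tool the study's methods name, on every gene with a count, 5 members passed: Tap1 (0.75), Tap2 (0.65), Nlrc5 (0.42) and H2-K1 (0.49, DESeq2 adjusted p = 0.748) were higher in S and B2m (-0.51, DESeq2 adjusted p = 0.750) lower, beside 2.81% of all genes higher and 1.64% lower. The light chain and the H2-K1 heavy chain thus stood on opposite sides of 0, while the tested platelet and erythroid markers had median log2 fold changes of -0.24 and -0.62 in the same comparison, whose part in this was not tested. The ratio of their counts, looked at after these values were seen, was 19.4 to 45.4 in the C libraries and 5.46 to 18.4 in the S libraries. These groups did not overlap, beside 1.31% of all other tested genes whose ratio to H2-K1 was lower in every S library and 0.0528% higher in every one. The ratio was 8.24 to 49.9 in O, a range that covers that of C and overlaps that of S, and 0.429 to 0.679 in PBMC. The lowest platelet value came from S replicate 5, which had the highest summed level of leukocyte markers (1682 CPM, scaled within platelets), and the part of leukocytes in this ratio was not tested. Tapbp had a log2 fold change of 0.46 ± 0.24, and H2-D1, H2-T23, Psmb8 and Psmb9 lay between -0.12 and 0.07.

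Between S and O, which separates few injected cells from a large tumor, the 3 genes of transport and loading passed the unadjusted threshold and no other member did. All 3 were higher in S, beside 7.23% of all genes higher and 6.67% lower, and none passed the adjusted threshold, as for 0% of genes. Tap1 measured 25.2, 15.8, 42.0, 16.0 and 27.9 CPM in O. Its log2 fold change was 1.17 ± 0.33 (edgeR adjusted p = 0.250), with 3 S libraries above all O libraries. Tapbp, tapasin, measured 46.7, 48.0, 52.3, 50.3 and 35.3 CPM in O and 90.0, 66.8, 113, 53.1 and 95.8 CPM in S. All 5 S libraries lay above all 5 O libraries, without overlap between the groups, beside 1.99% of all genes tested with every S library above every O library and 1.57% with every S library below. Its log2 fold change was 0.83 ± 0.20 (edgeR adjusted p = 0.225).

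Tap2 measured 18.3, 8.28, 16.9, 6.71 and 9.55 CPM in O, and its log2 fold change from O to S was 0.88 ± 0.34 (edgeR adjusted p = 0.315). It lost its call without O replicate 2, 4 or 5 or S replicate 5. Tapbp in C measured 100, 51.6, 47.6, 55.6 and 46.5 CPM, where the first library stood near the top of the S group and the others near O. H2-K1 had a log2 fold change of 0.48 ± 0.35 and B2m of -0.33 ± 0.48 between S and O. The remaining 5 members lay between -0.12 and 0.23.

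Between O and C, no member passed the unadjusted threshold in platelets, beside 2.61% of all genes higher and 2.17% lower, and 0% by the adjusted rule. The 635 genes called by the unadjusted rule became 1072 without O replicate 2. Tap1 came to a log2 fold change of -0.44 ± 0.29, Tapbp to -0.38 ± 0.22 and Tap2 to -0.24 ± 0.30. The widest spread was that of B2m, which measured 3954, 11532, 9176, 15356 and 2836 CPM in the O libraries and came to -0.17 ± 0.51. H2-D1 spread alike, at 1547, 2262, 1724, 3256 and 696 CPM in O. The largest and smallest O values of both chains came from replicates 4 and 5.

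**Figure D3:**
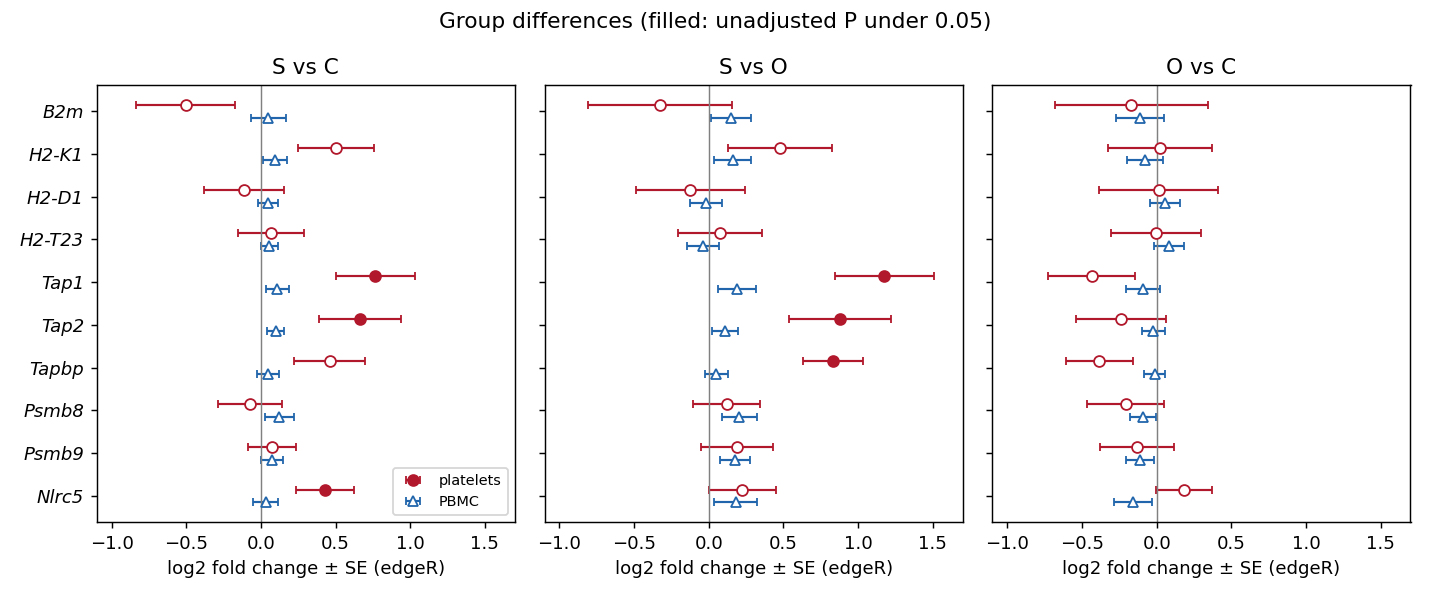
Log2 fold changes with their standard errors from edgeR for the 10 genes in the 3 comparisons, platelets as circles and PBMC as triangles; filled symbols have an unadjusted P under 0.05. Filled symbols are Tap1, Tap2 and Nlrc5 for S against C and Tap1, Tap2 and Tapbp for S against O, in platelets.

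In PBMC, no member passed the unadjusted threshold in any of the 3 comparisons by edgeR, nor by DESeq2. Of all genes, 1.23% were higher and 1.41% lower in S than in C, 4.43% higher and 7.8% lower in S than in O, and 7.56% higher and 4.39% lower in O than in C. The 400 genes of S against C became 603 without C replicate 3. By the adjusted rule the shares were 0.033%, 0% and 0%. The log2 fold changes of the 10 genes lay between 0.03 and 0.12 for S against C, between -0.04 and 0.20 for S against O, and between -0.16 and 0.08 for O against C. Tap1 measured 379, 377, 381, 412 and 364 CPM in C, 392, 364, 431, 475 and 383 CPM in S, and 274, 329, 370, 432 and 387 CPM in O. Tapbp ranged from 280 to 326 CPM in C, 279 to 335 CPM in S and 270 to 303 CPM in O, so that the PBMC groups overlapped throughout. With the replicate number as a block, by which same-numbered PBMC libraries of S and O deviated together, Nlrc5 alone passed, with a log2 fold change of 0.20 ± 0.08 (edgeR adjusted p = 0.360), beside 5.2% of all genes higher and 8.4% lower in that fit.

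The fold changes of both tissues were then set against each other, as platelet minus PBMC, in one edgeR model over all 30 libraries. That model held no term for the pool, although both tissues came from the same blood. Same-numbered platelet and PBMC libraries deviated together in every pair of O (correlations 0.07 to 0.47), but not of C or S. For S against O, Tap1 differed by 0.87 ± 0.33 (adjusted p = 0.258), Tap2 by 0.66 ± 0.32 (adjusted p = 0.353) and Tapbp by 0.65 ± 0.25 (adjusted p = 0.264). These 3 were the members past the unadjusted threshold, beside 13.6% of all genes. Tap2 lost its call in 14 of 30 fits that each left out 1 library, with values from 0.42 (without platelet S replicate 5) to 1.00 (without platelet O replicate 1), whereas Tap1 (0.66 to 1.12) and Tapbp (0.61 to 0.85) kept theirs. For S against C and O against C no member passed, beside 5.38% and 6.59% of all genes. With the replicate number as a block, a member was called for O against C. Tap1 had a difference of 0.62 ± 0.33 for S against C (adjusted p = 0.935).

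Transcripts of nucleated leukocytes moved with the transporter genes in the platelet libraries. Of 14 leukocyte markers, 5 were higher in S than in C and 9 higher in S than in O by the unadjusted rule, none lower, with median log2 fold changes of 0.58 and 0.93. Of all genes tested, 4.29% and 7.23% were higher in these comparisons. Of 10 B cell markers, 4 and 7 were higher, of 12 T cell markers, 4 and 9. Their summed level was 491 to 858 CPM in C, 624 to 1682 CPM in S and 312 to 663 CPM in O for the leukocyte list, with the top value in S replicate 5, as for Tap1. Of 9 neutrophil markers, 5 were lower in S than in O and none higher. Of 13 tested platelet markers, 1 was higher in S than in C by sign and none passed (median log2 fold change -0.24), and against O 2 were higher by sign and 1 passed as lower (median -0.30). Of 7 tested erythroid markers, none was higher in S by sign in either comparison and 1 passed as lower, against O (medians -0.62 and -0.62). Melanocyte markers summed to 0.505 to 5.32 CPM over the platelet libraries.

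Across the 15 platelet libraries, Tap1 followed the mean log2 level of the 14 leukocyte markers with a Pearson's r of 0.98 and a Spearman's rho of 0.97, and r was 0.97 without the 2 libraries farthest from the median score. Tap2 had an r of 0.92 and Tapbp of 0.77, H2-K1 of 0.52, Nlrc5 of 0.42, H2-D1 of -0.11 and B2m of -0.30. H2-T23 had an r of 0.19, and of 0.37 without the 2 libraries farthest from the median score. Psmb8 and Psmb9 lay at -0.01 and 0.15. Without the same 2 libraries, r was 0.83 for Tap2, Tapbp and H2-K1, 0.23 for Nlrc5 and Psmb8, 0.32 for H2-D1 and Psmb9, and 0.17 for B2m, so the negative values of H2-D1 and B2m rest on those libraries. The points share libraries, normalization and the group difference itself, so no p is given. With that score as a covariate no member passed in either S comparison. The score itself differed between the groups, at 4.75 to 5.96 in S, 4.38 to 5.21 in C and 3.82 to 4.89 in O. A fit with both therefore cannot tell the score and the group fully apart. The log2 fold change of Tap1 was then 0.14 against C and 0.06 against O by edgeR, that of Tap2 0.02 and -0.23, and that of Tapbp 0.08 and 0.53. Whether cells in the platelet preparation account for the difference was not tested.

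**Figure D4:**
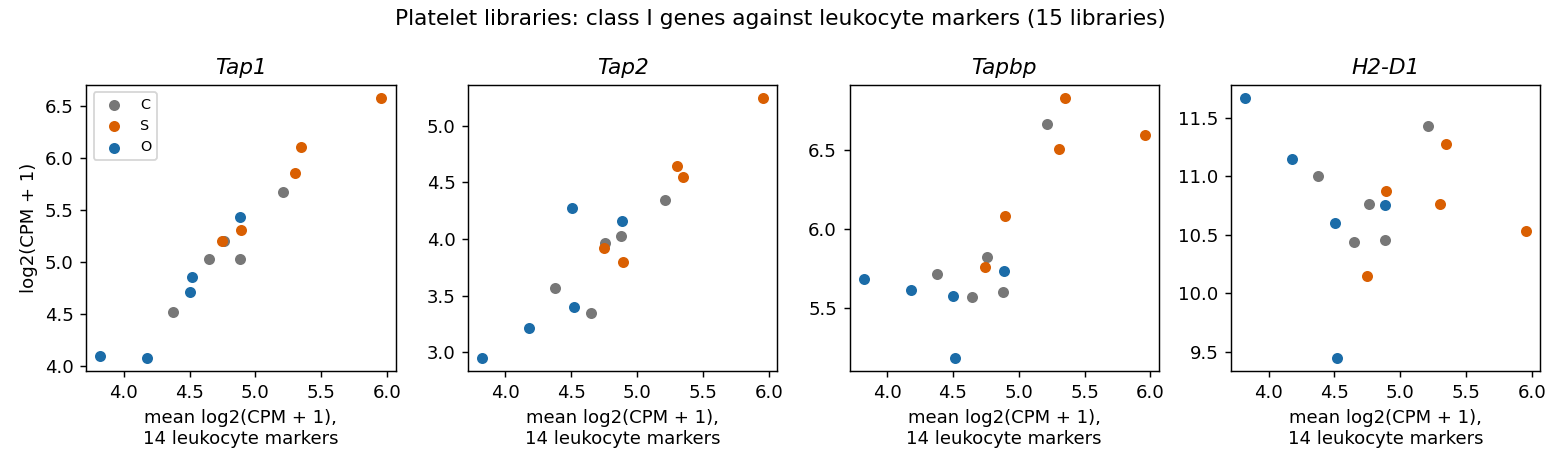
Log2(CPM + 1) of Tap1, Tap2, Tapbp and H2-D1 in the 15 platelet libraries against the mean log2(CPM + 1) of 14 nucleated leukocyte markers, coloured by group. Tap1 rises along the score (r = 0.98) (0.97 without the 2 libraries farthest from the median score), and H2-D1 has an r of -0.11 (0.32 without them).

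Genes most like Tap1 over the 15 platelet libraries, among 13082, included Clcf1 (Spearman's rho 0.98), H2-Q7 (0.98), Siglecg (0.98) and H2-Q5 (0.98). Siglecg is a B cell lectin, and H2-Q7 and H2-Q5 are class I genes of the Q region. For H2-K1 they were Esyt1 (0.94), Clcn7 (0.94), Ctsa (0.92), Cd37 (0.92) and Tmc6 (0.91). The 3 highest rho between members in platelets were 0.90 for Psmb8 and Psmb9, 0.86 for B2m and H2-D1 and 0.82 for Tap1 and Tap2, while Tap1 and Psmb9, with their shared promoter region, had 0.19. In PBMC the same pairs had 0.92, 0.64, 0.68 and 0.74. In platelets Tap1 and Tapbp had 0.79, H2-D1 and H2-T23 0.74, and H2-K1 had 0.63 with Tap1, 0.64 with Tap2, 0.66 with Tapbp and 0.67 with H2-T23. B2m and H2-K1 had 0.09 in platelets and 0.65 in PBMC. All these are over 15 libraries of 3 groups and stand as a description.

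Some heavy chains outside the members passed the unadjusted threshold in platelets. Of 11 tested class I and class I-like heavy chains outside the members, 3 were higher in S than in C, 6 higher in S than in O and 3 lower in O than in C, with none in the opposite direction. Of all genes tested, 4.29% were higher in S than in C, 7.23% higher in S than in O and 2.17% lower in O than in C. H2-Q7, a Qa-2 chain, had log2 fold changes of 0.98 ± 0.35 (edgeR adjusted p = 0.746) against C and 1.75 ± 0.43 (adjusted p = 0.225) against O. Its CPM was 40.6 to 165 in S, 23.3 to 69.5 in C and 13.0 to 50.4 in O. H2-Q4 was higher in S than in O by 1.38 ± 0.34, and the CD1 chain Cd1d1 higher in S than in C by 0.94 ± 0.34. None of these passed the adjusted threshold. The Q-region chains are near-identical to each other, so the split of reads among them is uncertain.

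Of 16 other processing and loading genes, 3 were higher and none lower in S than in C, and the same counts held against O. Over all genes tested, 4.29% were higher in S than in C and 7.23% higher than in O. Tapbpl, the tapasin-related editor, was higher by 0.56 ± 0.20 against C and 0.65 ± 0.20 against O (edgeR adjusted p = 0.746 and 0.260). Sec61a1, the core of the endoplasmic reticulum channel, was higher by 0.57 ± 0.22 and 0.71 ± 0.19. Cd74, the class II invariant chain, was higher by 1.09 ± 0.28 against O, and the chaperone Hspa5 by 0.58 ± 0.27 against C. Of 22 tested regulators and interferon gamma signalling genes, none was higher in S than in C or O, and 1, the CREB-family factor Atf1, was lower than in O at -0.43 ± 0.18, named after its value was seen. Of 11 class I receptors, 3 were higher in S than in O, led by the T cell co-receptor chain Cd8b1 at 0.81 ± 0.19 (edgeR adjusted p = 0.225), and 3 were lower in O than in C. Of all genes tested, 7.23% were higher in S than in O and 2.17% lower in O than in C.

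In PBMC, 7 of 11 class I receptors were higher in S than in O and 1, Pirb, named after its value was seen, was lower, with the natural killer cell receptor Klrd1 at a log2 fold change of 0.38 ± 0.08 (edgeR adjusted p = 0.296) and Klra9 at 0.76 ± 0.18. Against C, none passed the threshold in S, where 9 were higher by sign, and in O 3 were lower, beside 4.39% of all genes. Beside them, 8 of 8 natural killer cell markers and 10 of 12 T cell markers were higher in S than in O. Over all genes tested, 4.43% were higher and 7.8% lower. None of 10 B cell or 10 monocyte and macrophage markers passed, and 2 of 10 neutrophil markers were lower. The proteasome activator Psme3 was lower in S than in O, at -2.17 ± 0.67, and 7 of 7 erythroid markers were lower there too.

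Immunoproteasomes form when Psmb8, Psmb9 and Psmb10 take the places of the constitutive subunits Psmb5, Psmb6 and Psmb7. The ratio of counts within a library does not depend on scaling between libraries. Psmb8 to Psmb5 had a median of 2.63 in platelets (range 0.566 to 3.51) and 4.10 in PBMC (1.46 to 5.06), Psmb9 to Psmb6 of 1.81 (0.403 to 2.35) and 2.53 (1.32 to 3.44), and Psmb10 to Psmb7 of 2.48 (0.5 to 3.28) and 3.43 (1.17 to 4.37). None of 18 comparisons of groups, by a two-sided exact permutation test on the log2 ratios, passed the adjusted threshold (smallest adjusted p = 0.143), and 3 had an unadjusted P under 0.05. That permutation takes the libraries as unpaired. Sign flips within the replicate block left 0 ratios past the unadjusted threshold. Their smallest possible p is 0.0625, so they could not pass it. The smallest p that the permutation of 5 against 5 libraries allows is 0.00794.

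That smallest p was reached by Psmb8 to Psmb5 in PBMC, where all 5 O libraries (1.46 to 3.96) lay below all 5 C libraries (4.00 to 4.56), a log2 difference of -0.51. The share of other gene pairs that part these groups alike was not computed. Between S and O the ratio of Psmb8 to Psmb5 differed by 0.58 (exact permutation p = 0.0159, adjusted p = 0.143). Without O replicate 1 these differences were -0.25 and 0.32, and both stayed past the unadjusted threshold. It was missed by O against C without any 1 of the 5 C libraries, at -0.53 to -0.48, and by S against O without S replicate 1, 2, 3 or 4, at 0.53 to 0.58. In platelets, Psmb9 to Psmb6 was higher in S (1.80 to 2.35) than in C (1.46 to 1.92) by 0.27 on the log2 scale (exact permutation p = 0.0397, adjusted p = 0.238). It missed the unadjusted threshold in 7 of 10 leave-outs of 1 library, with differences from 0.22 to 0.33. The lowest ratio of each kind came from O replicate 1 in both tissues, the library in which hemoglobin took 39.0% of the platelet counts and 24.5% of the PBMC counts. Across the 15 PBMC libraries, which share the group difference in both measures, the 3 log2 ratios had a Spearman's rho between -0.68 and -0.49 and a Pearson's r between -0.75 and -0.66 with the log2 hemoglobin share. Without the 2 libraries farthest from the median share, r was between -0.75 and -0.35. Across the 15 platelet libraries rho was 0.04 for Psmb8 to Psmb5, -0.31 for Psmb9 to Psmb6 and 0.11 for Psmb10 to Psmb7, r was between -0.40 and -0.07, and without the 2 farthest libraries r was between -0.51 and -0.38. The part of red cell transcripts in these ratios was not tested.

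**Figure D5:**
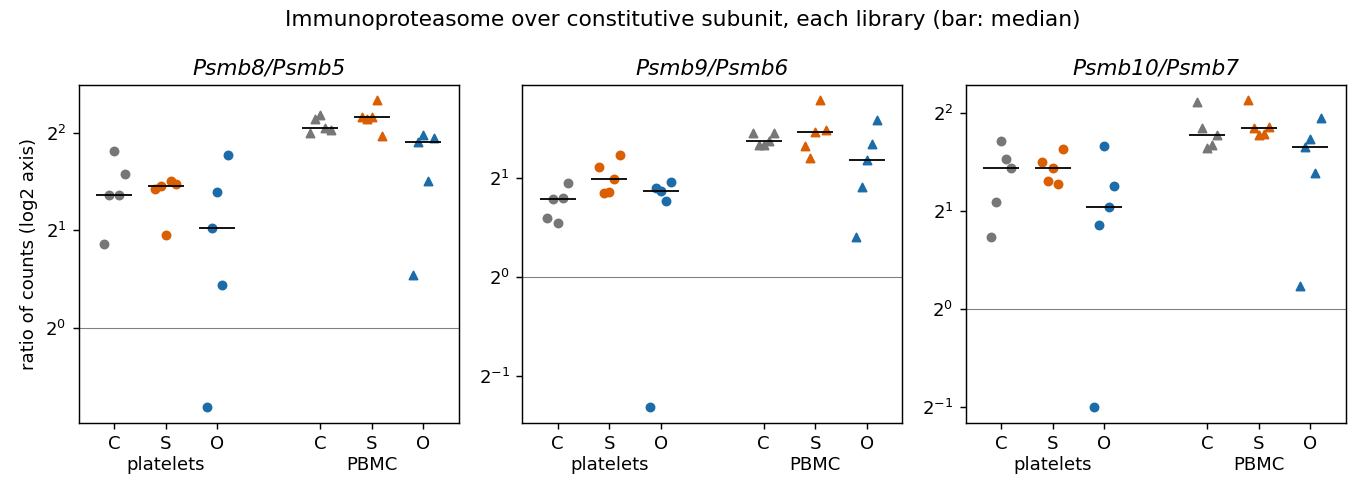
Ratio of counts of each immunoproteasome subunit to the constitutive subunit it replaces, in every library of the 3 groups of both tissues, on a log2 axis with the median as a bar. Platelet O replicate 1 is the lowest point of each panel, at 0.566, 0.403 and 0.5.

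Close relatives of these genes can share reads. Of all 100-base strings in the transcripts of H2-D1, 3.59% recurred in transcripts of other genes, mostly H2-Q1, beside 0.957% for H2-K1 and 3.15% for H2-T23. The share was 14.8% for Tapbp and 8.05% for Psmb8, in overlapping gene models without a common name, 4.99% for Tap2, and 0% for B2m and Nlrc5. Tap1 and Psmb9 share the 1.93% of Tap1 strings where they overlap on opposite strands, where counting without strand cannot separate them.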

How the data were processed

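Gene counts were taken as deposited, 1 whole-number count per Ensembl gene and library, with no normalization. The study's methods name poly-A selection and the NEBNext Ultra kit, with the strand setting of counting not given in the sources used here, and the submitters' processing notes list HISAT2 2.0.5, featureCounts 1.5.0-p3, DESeq2 1.16.1 and the build mm9. Gene symbols matched 54409 of 54532 IDs. Positions here come from the GRCm38 annotation and sequences from RefSeq, not from mm9. Members, lists and tests were chosen with earlier results of these data known. All 10 members were named in every comparison, and of the other lists the genes with P under 0.05, at most the 6 smallest P per comparison. Genes like Tap1 and H2-K1 were the 5 with the highest Spearman's rho, of which 1 is not reported here. Leukocyte, lineage, erythroid and melanocyte marker lists were taken from general knowledge.

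Counts were filtered with filterByExpr and normalized by TMM. Every comparison of groups had its own edgeR 4.0.16 fit (quasi-likelihood, R 4.3.3) on the libraries compared, platelets and PBMC being set against each other in 1 fit of 30 libraries that also held a group term, unadjusted P under 0.05 being the study's rule, with Benjamini-Hochberg values beside it. Printed CPM were scaled within a tissue unless stated. DESeq2 1.42.0, limma 3.58.1 (voom with quality weights) and the other alternatives were checked. The SE was the log2 fold change over the square root of F. Ratios had 0.5 added to each count. Fits were tested on simulated data. Same-numbered PBMC libraries deviated together in all 5 pairs for S against C (correlations 0.21 to 0.51), S against O (0.10 to 0.35) and O against C (0.04 to 0.39). The replicate number was taken as pairing there in a further fit with a block, while the main fits held no block. The block changed no member call of S against C or of O against C. Same-numbered platelet and PBMC libraries deviated together in all 5 pairs of O (0.07 to 0.47), and not in all of C or S. At this depth the lowest member, Tap2, had at least 133 counts in every platelet library.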

Additional observations from a re-analysis of the deposited data

Results flagged for a closer look

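A value that stands far from the other 4 of its group was found in 10 of 90 groups of 5 libraries by Dixon's test (critical value 0.71), where chance gives about 1 in 20. Tapbp was high in platelet C replicate 1 (100.3 CPM) and PBMC C replicate 1 (326 CPM) and low in platelet O replicate 5 (35.3 CPM). Nlrc5 was high in platelet S replicate 5 (81.7 CPM). In PBMC, Psmb8 was high in S replicate 1 (196 CPM) and Psmb9 low in S replicate 2 (105 CPM). Among the ratios of counts, B2m to H2-K1 was high in platelet C replicate 2 (45.4), Psmb10 to Psmb7 high in PBMC S replicate 1 (4.37), Psmb8 to Psmb5 low in platelet S replicate 3 (1.93) and Psmb9 to Psmb6 low in platelet O replicate 1 (0.403).

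The difference between S and O was larger in platelets than in PBMC by an interaction term for Tap1 (0.87 on the log2 scale), Tap2 (0.66) and Tapbp (0.65), each at an unadjusted P under 0.05 and none after adjustment over all genes. Tap2 lost its call in 14 of 30 fits that left out 1 library each (0.42 to 1.00). All 3 were higher in S than in O in both tissues by sign, and in PBMC none passed the test.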

How the results depend on the processing

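The lowest member had at least 133 counts in every platelet library. Beside 3 members called for S against C in platelets, DESeq2 on every gene called 5, and the leukocyte score as a covariate 0. For S against O the covariate also gave 0 in place of 3. The replicate block gave 1 for S against O in PBMC and 1 for the tissue difference of O against C, and edgeR on every gene gave 1 for that of S against C, each in place of 0. In platelets, where same-numbered libraries did not deviate together in every pair, the block gave 2, 3 and 0 members for S against C, S against O and O against C. No adjusted proteasome ratio was called with another pseudocount, with medians or with sign flips within the replicate block, where the smallest possible p is 0.0625.

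Over all genes, the platelet fits without 1 library called 556 to 1542 for S against C. They called 1293 to 2146 for S against O and 474 to 1072 for O against C. Leaving out 1 library at a time gave 1 to 5 members for platelet S against C, 2 to 3 for S against O and 0 to 1 for O against C (Tap1 at -0.70 without O replicate 3). It gave 0 to 2 for PBMC S against O (B2m and Psmb9 without O replicate 4), 8 to 10 for the tissues, and 0 to 3 and 2 to 3 for the tissue differences of S against C (3 without platelet C replicate 1) and S against O. Tap1 stayed past the threshold in both S comparisons, at 0.52 to 0.91 against C and 0.97 to 1.44 against O, as did Tapbp against O at 0.68 to 0.98. Tap2 ran from 0.39 to 0.80 and 0.63 to 1.05, and Nlrc5 against C from 0.23 to 0.49, with calls lost.

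Between groups in platelets the sign turned as follows for members not called by edgeR unless stated, and the cause was not tested. With the covariate, H2-T23 was -0.12 and Psmb8 0.082 for S against C; B2m was 0.41, H2-D1 0.43, Tap2 -0.23 (called without the covariate) and Nlrc5 -0.16 for S against O; H2-K1 was -0.012, H2-D1 -0.27, H2-T23 0.013, Tap1 0.043 and Tap2 0.20 for O against C. With voom, Psmb8 was 0.21 for S against C, and Psmb8 0.059 and Psmb9 0.035 for O against C. For O against C, H2-T23 was 0.0052 with DESeq2, 0.0016 with DESeq2 on every gene, 0.0054 with RLE, 0.0064 with all 3 groups and 0.0067 without erythroid genes, and the block gave H2-K1 -0.10 and H2-D1 -0.11. Without the libraries that stand apart, an alternative chosen after seeing the data, Psmb8 was -0.0042 for S against O, and B2m 0.33 and Psmb9 0.042 for O against C. With library totals, also chosen after seeing the data, platelets against PBMC turned H2-D1 to -0.66 and Psmb8 to -0.50, both called higher with TMM and lower here, and H2-T23 to -1.14 and Psmb9 to -1.02, called here and not with TMM.

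Without 1 library, S against C ran from -0.27 to 0.045 for H2-D1, -0.081 to 0.24 for H2-T23, -0.16 to 0.13 for Psmb8 and -0.0026 to 0.19 for Psmb9. S against O ran from -0.34 to 0.15 for H2-D1, -0.10 to 0.26 for H2-T23, -0.051 to 0.23 for Psmb8 and -0.0084 to 0.31 for Psmb9. O against C ran from -0.49 to 0.046 for B2m, -0.28 to 0.22 for H2-D1, -0.26 to 0.21 for H2-K1, -0.22 to 0.20 for H2-T23, -0.31 to 0.00034 for Psmb8 and -0.26 to 0.049 for Psmb9.

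Over all genes, edgeR without the filter called 2097 in place of 852 (platelet S against C), 3131 in place of 1849 (S against O), 1547 in place of 635 (O against C), 1512 in place of 400 (PBMC S against C), and 2156 in place of 887 and 1875 in place of 1088 (tissue differences of S and of O against C). Without platelet C replicate 1, that of S against C called 1652. Voom called 2081 for platelet and 633 for PBMC S against C, the block 684 for the latter, and the joint fit 954 for platelet O against C. The covariate called 807 for platelet S against O, and 249 in place of 1796 and 336 in place of 1759 for PBMC S and C against O.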
